A study of Rattus norvegicus with 6 samples.

Results

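Transcripts of 8 genes that mark bile duct epithelium, liver progenitor cells or epithelial cells in general were examined in rat liver: Epcam, Krt8, Krt18, Krt19, Sox9, Spp1, Onecut1 and Cdh1. They were chosen by gene symbol, and the choice was made with the treated and control values of these arrays already in view, so the differences between the diets given for them describe the 8 genes and support nothing further. All probe sets whose platform annotation gives 1 of these symbols were taken, which gave 9 of the 31099 probe sets and 7 of the 8 genes. No probe set was matched to Sox9, so it has no value here. Each of 6 male BrlHan:WIST@Jcl(GALAS) rats gave liver RNA for 1 Affymetrix array. They were 4 weeks old when bought, spent 1 week in quarantine and were 7 weeks old at sampling. The control group of 3 rats ate the powdered diet alone. The treated group of 3 rats ate for 2 weeks a diet that held the pyrethroid insecticide epsilon-momfluorothrin. The labels disagree on its dietary dose, which is 3000 ppm in the titles and the treatment protocol and 5000 ppm in the sample characteristics, so the group is named by the compound alone.

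Bile ducts are lined by cholangiocytes, an epithelium that shares its embryonic origin with the hepatocytes. EpCAM is a cell surface adhesion protein of many epithelia that in the liver marks cholangiocytes and the progenitor cells which appear around the portal tracts after injury, whereas mature hepatocytes carry little of it. Keratins 8 and 18 form the filaments of hepatocytes and cholangiocytes alike, keratin 19 is restricted to cholangiocytes and progenitors, Spp1 encodes osteopontin, a secreted matrix protein of duct cells and activated macrophages, and Sox9 is a transcription factor of duct cells. Onecut1 encodes HNF6, a transcription factor of hepatocytes and of bile duct development, and Cdh1 encodes E-cadherin, the adhesion protein of epithelial adherens junctions. In a piece of whole liver, fewer cells of a type and less RNA per cell cannot be told apart.

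The array median signal was 27.0 to 29.4 in control and 23.1 to 26.5 in momfluorothrin livers (exact permutation p = 0.1, 2-sided, the smallest that 3 against 3 allows). The ratio of the 3′ to the 5′ control probe set of Gapdh, which rises in degraded RNA, was 1.23 to 1.28 in control and 1.23 to 1.28 in treated livers (exact permutation p = 0.8). The same ratio of beta-actin was 2.24 to 2.70 in control and 2.40 to 3.12 in treated livers (exact permutation p = 0.5), with the highest value in treated replicate 3. Signals are linear intensities, and each array has a trimmed mean of 100. A probe set was tested where its signal exceeded the median of its array on at least 3 of the 6 arrays. It is called dim in a group where it exceeded the median on none of the 3 arrays. Log2 differences are momfluorothrin minus control with the SE of the limma fit, and p-values were adjusted over all 15778 tested probe sets with the Benjamini-Hochberg method. Means of signals are given with SD. Centring each array on its median, an alternative scaling, adds 0.17 to every log2 difference. Values above 0 grow, small ones by more than 1.5 times. Values below 0 move upward, and those smaller in size than 0.17 turn positive.

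The filter kept 6 of the 9 member probe sets, which measure 5 genes, and each of these 6 exceeded the array median on all 6 arrays. The 3 others are 1 probe set each of Krt19, Spp1 and Cdh1. Krt19 exceeded the median on 2 arrays, 1 fewer than the filter asks, and the other 2 probe sets on none.

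Epcam was the member with the clearest separation between the diets. Control rats 1 to 3 had signals of 67.1, 83.1 and 95.1, the treated rats 138, 107 and 134. The lowest treated animal lay above the highest control animal, so the groups did not overlap. The means were 81.8 ± 14.0 and 126 ± 16.6 (SD, n = 3 each), a 1.55-fold difference, or 0.63 ± 0.16 on the log2 scale (SE). Among tested probe sets, 98.4% had a smaller signed log2 difference. Its adjusted p in limma was 0.22, past no threshold, and it lay between 0.0802 and 0.527 over the 14 alternative settings.

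No member probe set passed an adjusted p of 0.05 in limma. Over all tested probe sets 27 passed, or 0.171% (0.133% higher and 0.038% lower), and since the genes were chosen on this contrast nothing is read from either count. At an unadjusted p under 0.05 there were 2 of the 6, Epcam on the higher side and Cdh1 on the lower, where 11.6% of all tested probe sets were, 4.92% higher and 6.64% lower. Groups that did not overlap were found for Epcam alone of the 6, with treated livers higher, a state shared by 7.4% of all tested probe sets, while 10.4% were separated with treated livers lower and 17.8% in either direction.

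**Figure D1:**
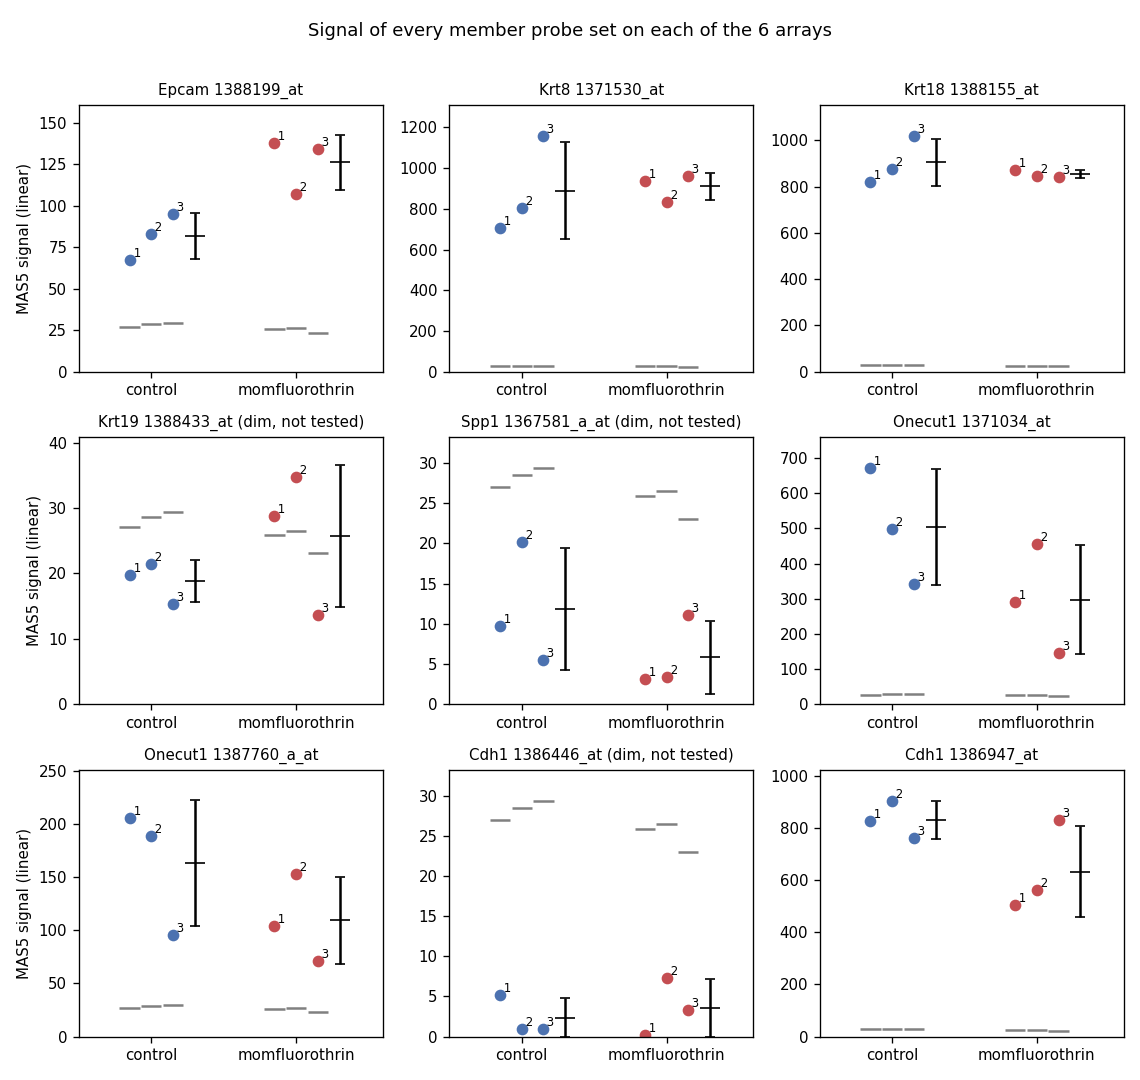
Linear signal of each of the 9 member probe sets on each array (points, numbered by replicate; control blue, momfluorothrin red), with the group mean and SD as a black bar and the median of each array as a short grey line. Epcam is separated between the groups, at 67.1 to 95.1 in control and 107 to 138 in treated livers, the other panels overlap, and Spp1 and 1 Cdh1 probe set lie under every array median.

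The sequences before the start sites of Epcam and of the keratin pair Krt8 and Krt18 are shown because Epcam carries the largest difference upward among the members and because the 2 keratin genes are neighbours in the rat gene table of assembly GRCr8. Each covers 250 bases before and 50 bases after the annotated start, 5′ to 3′, from RefSeq, where 4 of the 8 members had an entry. Capitals mark exact matches, sought on both strands, to 6 motifs. These were the AP-1 motif TGACTCA, held by 4.63% of all promoters of this length, the GC box GGGCGG (33.1%) and the TATA box TATAAA (14.2%). The others were the E-box CACCTG (18.8%), the nuclear receptor motif AGGTCA (16.2%) and the Onecut motif ATCAAT (8.06%).
Epcam promoter, GRCr8 chr6:12649629-12649928, minus strand: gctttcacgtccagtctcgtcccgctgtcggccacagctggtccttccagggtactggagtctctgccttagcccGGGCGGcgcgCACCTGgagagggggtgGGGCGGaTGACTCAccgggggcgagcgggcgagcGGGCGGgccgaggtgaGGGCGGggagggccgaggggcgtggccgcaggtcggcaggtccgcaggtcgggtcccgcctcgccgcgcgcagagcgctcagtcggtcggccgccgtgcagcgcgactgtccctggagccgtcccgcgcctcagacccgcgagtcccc
Krt8 promoter, GRCr8 chr7:135010290-135010589, minus strand: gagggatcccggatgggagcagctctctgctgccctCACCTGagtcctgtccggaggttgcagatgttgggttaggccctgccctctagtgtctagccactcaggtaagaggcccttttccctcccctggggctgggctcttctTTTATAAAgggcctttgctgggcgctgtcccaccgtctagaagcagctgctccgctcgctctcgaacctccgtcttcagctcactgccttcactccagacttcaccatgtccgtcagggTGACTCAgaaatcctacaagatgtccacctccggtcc
Krt18 promoter, GRCr8 chr7:135035918-135036217, plus strand: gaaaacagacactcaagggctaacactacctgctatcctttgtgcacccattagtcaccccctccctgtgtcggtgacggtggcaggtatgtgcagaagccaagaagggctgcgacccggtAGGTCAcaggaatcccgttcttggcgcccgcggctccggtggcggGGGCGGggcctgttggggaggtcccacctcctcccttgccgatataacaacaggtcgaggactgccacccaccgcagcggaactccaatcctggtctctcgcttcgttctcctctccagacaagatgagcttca
The Epcam window is 75.7% G and C, against a median of 51.7% over 33469 rat promoters, and holds 4 GC boxes, 1 E-box and 1 AP-1 match, but no TATA box. The Krt8 window holds 1 E-box, 1 AP-1 match that lies after the annotated start, and 2 TATA box matches, which overlap each other on opposite strands. The Krt8 sequence after that start opens with ATG, the codon that begins translation. The window is thus placed on the start of translation and not of transcription, and its AP-1 match lies in coding sequence. The Krt18 window holds 1 GC box and 1 nuclear receptor motif. None of the 3 windows holds the Onecut motif. These are matches of letters and not measured binding sites.

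The keratins of simple epithelia showed no difference larger than their spread. Krt8, the type II partner of the filament, read 707, 803 and 1157 in the control rats and 937, 833 and 961 in the treated rats. The control animals alone spanned the whole range, 1.64-fold from lowest to highest, and the treated animals fell within it. The log2 difference was 0.06 ± 0.17 (SE), and it was -0.085 without control replicate 1 and 0.27 without control replicate 3. Krt18, the type I partner, read 821, 877 and 1019 in the control rats and 873, 848 and 843 in the treated rats. All 3 treated values fell within the control range, at a log2 difference of -0.08 ± 0.10 (SE). That sign turned with median centring (0.094) and without control replicate 3 (0.0095).

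Keratin 19, the member most restricted to ducts, was dim in control livers and near the array median in treated ones. Control rats had 19.7, 21.5 and 15.3, treated rats 28.8, 34.8 and 13.6. Treated replicates 1 and 2 exceeded their array medians and treated replicate 3 had the lowest signal of all 6 animals, so the groups overlapped. No fold is given, because the Krt19 probe set did not pass the filter, and its treated mean of 25.7 lies among the treated array medians (23.1 to 26.5).

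Spp1 was dim in both groups. Control rats had 9.69, 20.2 and 5.52, treated rats 3.11, 3.32 and 11.05. All 6 signals lay below the median of their array, and no difference was read from them.

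Of the tested members, Onecut1 had the widest spread between animals. Its brighter probe set read 671, 498 and 341 in the control rats and 291, 455 and 146 in the treated rats. The second probe set read 205, 189 and 95.1 in the control rats and 104, 153 and 71.0 in the treated rats. Each probe set ordered the animals in the same way within a group, with control replicate 1 and treated replicate 2 highest and replicate 3 lowest in each diet. The groups overlapped on each probe set.

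The mean log2 differences of Onecut1 were -0.85 ± 0.38 and -0.57 ± 0.34 (SE, adjusted p = 0.439 and 0.55 in limma). The sizes moved with single animals. Without treated replicate 3 they were -0.41 and -0.29, without treated replicate 2 they were -1.23 and -0.85, and without control replicate 3 the second was -0.92. Without control replicate 1 the second was -0.37. The within-group SD on the log2 scale was 0.68 and 0.58, and 97.5% and 96.0% of all tested probe sets had a smaller one. The highest animal exceeded the lowest 4.60-fold on the brighter probe set and 2.89-fold on the other.

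Cdh1 was bright on 1 of its 2 probe sets. That probe set read 827, 904 and 761 in the control rats and 505, 561 and 832 in the treated rats. Treated replicates 1 and 2 lay below all control animals, whereas treated replicate 3 lay among them. The means were 831 ± 71.5 and 633 ± 175 (SD, n = 3 each), and the log2 difference of the fit was -0.42 ± 0.17 (adjusted p = 0.411 in limma). Without treated replicate 3 the log2 difference was -0.64, without treated replicate 1 it was -0.28, and with median centring it was -0.25. Treated replicate 3, which moved Onecut1 and Cdh1, is the array with the highest beta-actin ratio, whose part in these values was not tested. The other Cdh1 probe set had signals of 0.133 to 7.35 and was dim in both groups.

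Deviations from the group mean do not use the difference between the diets. In control livers Epcam, Krt8 and Krt18 were all lowest in replicate 1 (-0.27, -0.30 and -0.14 on the log2 scale) and highest in replicate 3 (0.23, 0.41 and 0.18), the reverse of both Onecut1 probe sets. In treated livers Epcam and Krt8 were lowest in replicate 2 (-0.23 and -0.12), the animal with the highest Onecut1, while Krt18 spanned no more than -0.02 to 0.03. Cdh1 followed neither, with treated replicate 3 highest at 0.43. With 3 animals a group these orders are a description of 6 arrays.

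**Figure D2:**
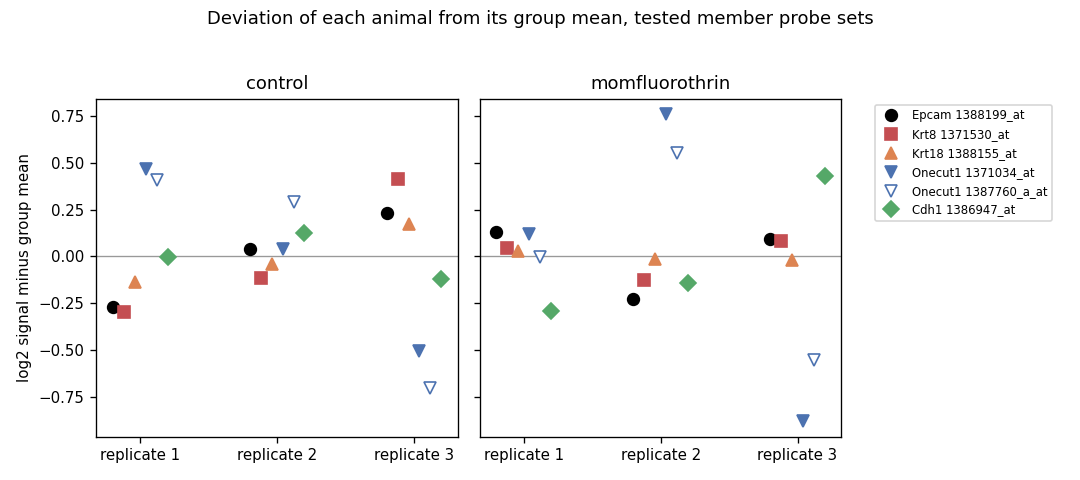
Log2 signal of each of the 6 tested member probe sets minus its group mean (vertical axis), by animal, for control (left) and momfluorothrin livers (right). Both Onecut1 probe sets (triangles pointing down, the second open) span the widest range and lie opposite to Epcam and Krt8 in control replicates 1 and 3 and in treated replicate 2.

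The 5 genes whose log2 signal followed that of Epcam most closely over the 6 arrays were Uqcrc1 (r = 0.990), a core subunit of respiratory complex III, Plbd2 (0.990), a lysosomal protein, the phosphatase gene Dusp23 (0.989), Echdc3 (0.986), which encodes an enoyl-CoA hydratase domain protein, and Zc3hc1 (0.983), which encodes a zinc finger protein of the nucleus. Each has groups that do not overlap, with treated livers higher, as Epcam and 9.04% of all tested genes do. The choice by likeness to Epcam nearly fixes this in advance, so nothing is read from it. Zc3hc1 lay near the array median, at 25.9 to 37.7. The log2 differences of the 5 genes were smaller than that of Epcam, from 0.23 ± 0.08 for Uqcrc1 to 0.42 ± 0.10 for Echdc3 (SE). None passed the adjusted threshold in limma (adjusted p of 0.175 for Echdc3, the lowest). The likeness includes the difference between the diets, and the genes share the arrays and their scaling.

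Other genes of these epithelia, or linked to the members by family or function, were taken as 7 lists without the 8 members. The lists were drawn up with earlier results of these data known, so nothing is read from their shares beside those of all genes. A gene was represented by its tested probe set of highest mean log2 signal. Of 133 list genes on the array, 87 were tested, 1 rose and 0 fell at an adjusted p of 0.05, where 0.217% of all 9200 tested genes passed (0.196% higher and 0.0217% lower). At an unadjusted p under 0.05 in limma, 9 were higher and 8 lower, where 6.05% and 6.18% of all genes were, or 12.2% in either direction. Groups did not overlap for 13 genes with treated livers higher and 11 with treated livers lower, or 14.9% and 12.6%, where all genes gave 9.04% and 9.23%, and 18.3% in either direction. The median log2 difference was -0.02 over the list genes and -0.01 over all genes.

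Among other biliary and progenitor genes the defining duct markers were dim. Of 28 genes in the list, 24 had a probe set and 10 were tested. A further 10 never exceeded the array median, among them Krt7, a duct keratin with signals of 0.794 to 5.16, Cftr, the chloride channel of duct cells with 1.39 to 20.2, and Sctr, the secretin receptor with 1.76 to 14.0. Cldn7, the claudin that binds EpCAM directly, had 0.727 to 5.09. Among the members, Spp1 was dim in both groups and Krt19 in control livers. Other genes of duct cells exceeded the array median on all 6 arrays, among them Epcam itself, Slc4a2 at 144 to 217 and Anxa4, an annexin, at 141 to 183 on its brighter probe set. The markers thus gave a mixed account of the biliary label, and the set is named here by its 8 genes. The bright members Krt8, Krt18, Onecut1 and Cdh1 are genes that hepatocytes express too.

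Ggt1 was the list gene that rose. It encodes gamma-glutamyltransferase, a surface enzyme of glutathione breakdown and a long-used stain for ducts and progenitor cells. Control rats had signals of 33.5, 52.2 and 33.4, treated rats 144, 233 and 165. All treated animals lay above all control animals, at 4.55-fold or 2.19 ± 0.23 in log2 (adjusted p = 0.0109 in limma). Its adjusted p ranged from 0.000791 to 0.112 over the 14 alternatives, and the call was lost without treated replicate 2 (adjusted p = 0.0593), without treated replicate 3 (0.0525) and with eBayes without a trend (0.112).

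Gstp1, Aqp1, Afp and Slc4a2 were picked out after their values were seen. They are the 4 further tested genes of this list whose representing probe set had groups that did not overlap. Outside that count, 3 probe sets were also separated, each with treated livers lower. These were Muc1 (24.3 to 29.9 against 15.7 to 22.3) and Tspan8 (22.5 to 37.6 against 9.80 to 17.9), neither tested, and an Onecut2 probe set at -0.31 ± 0.11. Gstp1, the pi-class glutathione transferase of ducts and altered hepatocytes, read 150, 196 and 146 in the control rats and 294, 913 and 228 in the treated rats. Each treated animal lay above each control animal, with treated replicate 2 far above the rest, and the log2 difference was 1.28 ± 0.43 (adjusted p = 0.329 in limma). Aqp1, the water channel of duct cells and vessels, gave opposite signs on its 2 tested probe sets. The brighter one was at 78.8 to 93.4 in control against 42.1 to 71.1 after treatment (log2 difference -0.68 ± 0.20, adjusted p = 0.272), and the other at 16.2 to 44.4 against 35.0 to 63.9, with overlap (0.48 ± 0.41). Afp, the fetal liver protein alpha-fetoprotein, was lower in each treated animal, at 135 to 194 against 92.2 to 117 (-0.61 ± 0.16, adjusted p = 0.22). Slc4a2, the anion exchanger of duct cells, was at -0.27 ± 0.13 (adjusted p = 0.461). The list therefore held values on each side, with a median of 0.01.

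**Figure D3:**
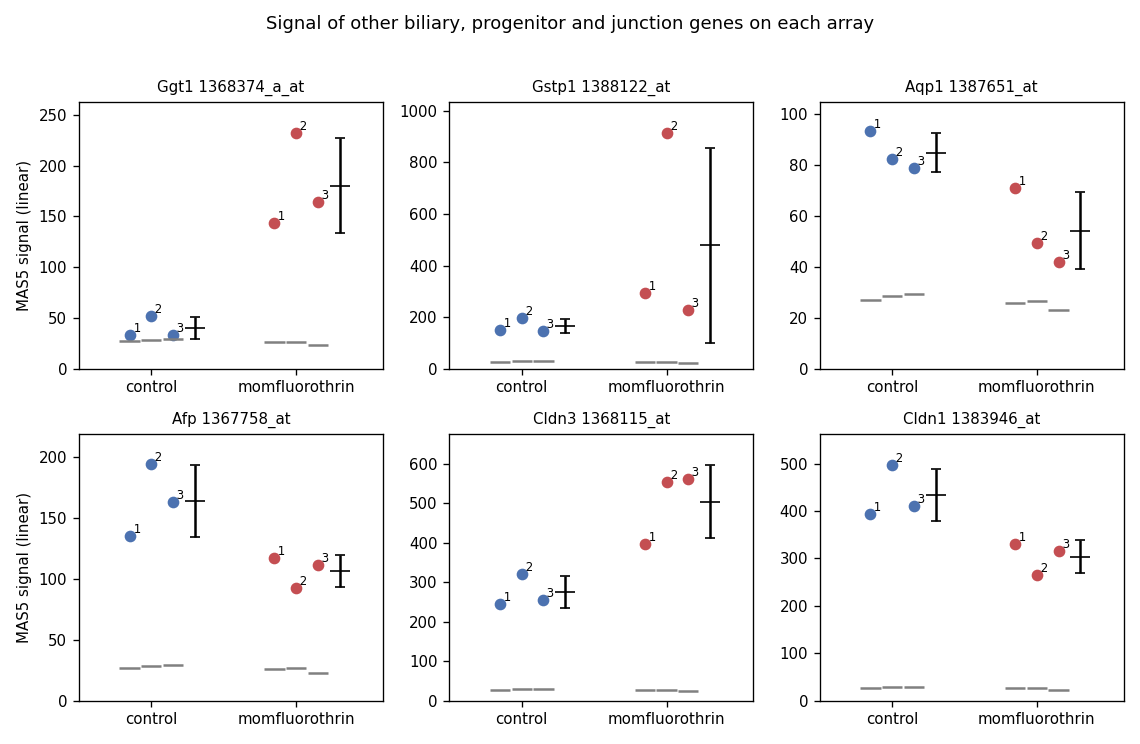
Linear signal per array (points, numbered by replicate) of 6 further epithelial genes in control (blue) and momfluorothrin livers (red), with mean and SD as a black bar and array medians as grey lines. Ggt1 sits at 33.4 to 52.2 in control and at 144 to 233 after treatment, and Cldn3 and Cldn1 lie in opposite directions. Gstp1 is higher in each treated than in each control animal, and treated replicate 2 at 913 raises its mean most.

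The keratin family held 20 further genes, of which 13 never exceeded the array median and 1 was tested. That gene, Krt23, had a log2 difference of 0.11 ± 0.40 (SE), whose sign turned without control replicate 3 (-0.29) or treated replicate 1 (-0.23). Krt8, Krt18 and Krt23 were thus the keratins that passed the filter.

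Junction genes differed in direction among themselves. Of 23 tested genes, 0 passed in limma, 4 were higher and 2 lower at an unadjusted p under 0.05, and the median was -0.08. Cldn3, a tight junction claudin of hepatocytes and ducts, read 245, 320 and 256 in the control rats and 397, 553 and 561 in the treated rats, with no overlap. Its log2 difference was 0.87 ± 0.16 (adjusted p = 0.104 in limma, 0.0316 to 0.327 over the alternatives). The threshold was passed with median centring alone, which raised the median log2 difference of all tested probe sets by 0.17. Cldn1, another tight junction claudin, was at 264 to 331 in treated against 395 to 497 in control livers on its brightest probe set (-0.51 ± 0.13, adjusted p = 0.203). Its other 2 probe sets were at -0.33 ± 0.13, without overlap, and -0.26 ± 0.17, with overlap. Gjb2, the gap junction protein connexin 26, was at 0.40 ± 0.13 (adjusted p = 0.329).

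Of 20 tested genes of the Notch and Hippo pathways, which direct progenitors towards the duct lineage, 0 passed in limma, and 1 was lower and 0 higher at an unadjusted p under 0.05 (median -0.01). Lats1, a kinase that restrains the Hippo effector YAP, was that gene, at 317 to 339 in control and 256 to 270 in treated livers (-0.31 ± 0.09, adjusted p = 0.248). Notch3, a receptor near the array median, was at -0.69 ± 0.35, and at -0.39 without control replicate 3. The kinase gene Stk3 was at -0.21 ± 0.15, at -0.11 without control replicate 1 and at -0.096 without treated replicate 2.

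Genes that cleave EpCAM or act behind its cleaved tail formed another list. Of its 9 tested genes 0 passed in limma, with 1 lower at an unadjusted p under 0.05 (median 0.08). That gene, the sheddase Adam10, was at 53.9 to 63.3 in control and 36.9 to 46.6 in treated livers (-0.45 ± 0.17, adjusted p = 0.374 in limma). Myc was at 0.56 ± 0.37, with 0.23 without control replicate 1, 0.21 without treated replicate 2 and 0.90 without treated replicate 3. Ncstn, a subunit of gamma-secretase, was at 0.15 ± 0.11, and at 0.083 without treated replicate 3. Of 7 tested osteopontin receptor genes 0 passed in limma, with 1 lower at an unadjusted p under 0.05 (median -0.05). The integrin genes Itga5, Itgb5 and Itgb1 were at -0.54 ± 0.17, -0.19 ± 0.09 and 0.13 ± 0.09. Second tested probe sets of Itgb5 and Itgb1 had the same signs, at -0.38 ± 0.20 and 0.28 ± 0.16.

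Transcription factors that work beside Onecut1 in hepatocytes were tested as a list of 18 genes, of which 0 passed in limma, 3 were higher and 1 lower at an unadjusted p under 0.05 (median -0.00042). Nr0b2, the corepressor SHP, read 338, 494 and 205 in the control rats and 584, 1072 and 615 in the treated rats, without overlap (log2 difference 1.16 ± 0.32, adjusted p = 0.241). Foxa3, a pioneer factor, was at 118 to 152 against 99.3 to 107 (-0.41 ± 0.13, adjusted p = 0.292), and Cebpb was at 0.81 ± 0.27 with groups that overlapped, and at 0.52 without control replicate 3. Onecut2, the relative of Onecut1, has 4 probe sets with log2 differences of -0.38 to -0.08, and it was picked out after its values were seen.

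**Figure D4:**
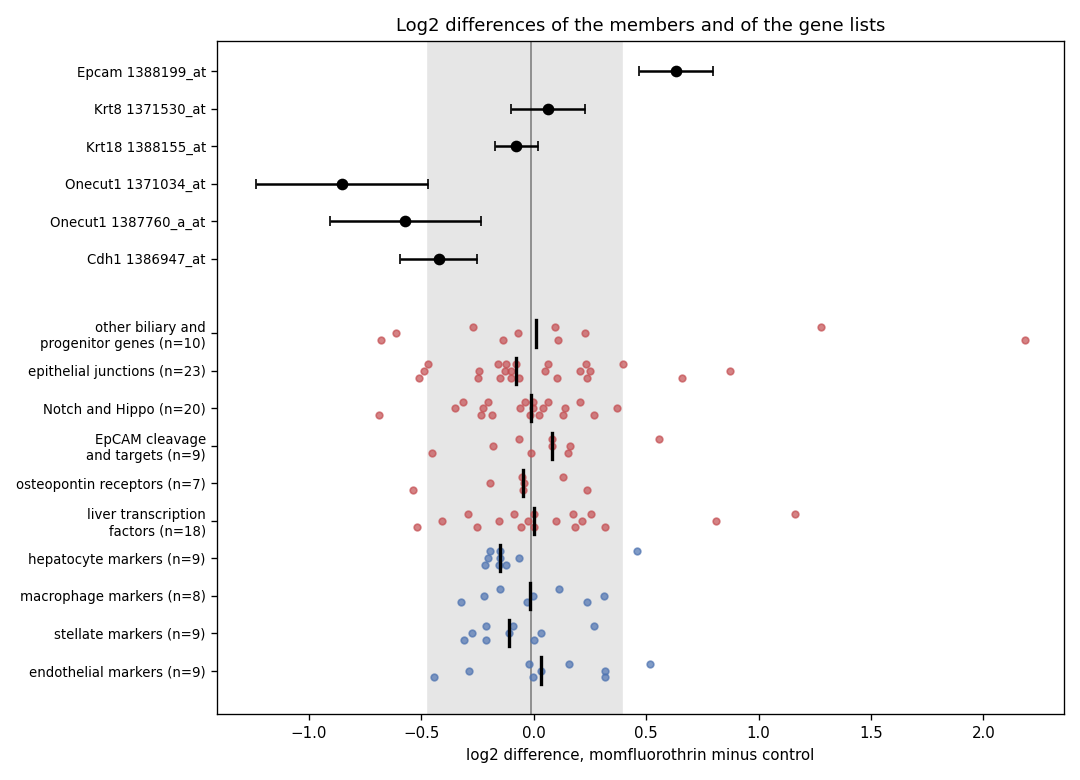
Log2 difference, momfluorothrin minus control, of the 6 tested member probe sets (black, with SE) and of each tested gene of 6 pathway lists (red) and 4 cell type lists (blue), with list medians as black ticks. The grey band holds the middle of all 9200 tested genes, from the 5th to the 95th percentile at -0.47 to 0.39; Epcam lies above it, both Onecut1 probe sets lie below it, Krt8 and Krt18 lie near 0 with signs that turn with the setting, and Ggt1 is the point farthest right.

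Markers of the other cells in the tissue were followed beside the members, and their part in the values above was not tested. Hepatocyte markers were bright, and their summed signal was 70121 to 78105 in control and 62546 to 69970 in treated livers, without overlap. Of 9 such genes 3 were lower and 0 higher at an unadjusted p under 0.05 in limma, where 6.18% and 6.05% of all genes were. Tat alone had a positive log2 difference, at 0.46 ± 0.27 with groups that overlapped. The 2 with the smallest p were Serpina1 at -0.22 ± 0.07 and Ahsg at -0.20 ± 0.07 (SE, adjusted p = 0.304 and 0.305 in limma). With median centring Serpina1 and Ahsg were at -0.045 and -0.030, and with quantile normalization at -0.059 and -0.058. The summed signals of 8 macrophage markers (1755 to 2290 against 1901 to 2061) and of 9 stellate cell markers (2071 to 2586 against 2219 to 2433) overlapped between control and treated livers. So did those of 9 endothelial markers (2060 to 2340 against 2284 to 2455). The genes with the smallest p in these lists were Clec4f at -0.33 ± 0.13, Csf1r at -0.22 ± 0.12, Col1a1 at -0.27 ± 0.17, Dcn at 0.27 ± 0.23, Eng at -0.45 ± 0.12 and Lyve1 at 0.31 ± 0.14. With median centring Csf1r was at -0.048 and Col1a1 at -0.10. Single animals moved Dcn from 0.080 without control replicate 1 and 0.13 without treated replicate 1 to 0.53 without control replicate 3. Clec4f was at -0.21 without treated replicate 2, Lyve1 at 0.15 without control replicate 1, and Col1a1 at -0.17 without control replicate 3 and -0.15 without treated replicate 3.

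Lymphocyte, cycling, pancreas and gut markers were mostly dim. Of 10 lymphocyte and neutrophil markers 2 were tested, Prf1 at 0.33 ± 0.30 and Ptprc at -0.04 ± 0.15 (SE), a sign that turned with quantile normalization and median centring. Prf1 was at 0.55 without control replicate 1 and 0.065 without control replicate 3. Of 10 cycling markers 3 were tested, with Pcna at 0.26 ± 0.12 and Mcm5 at -0.46 ± 0.33. Pcna was at 0.16 without control replicate 3, and Mcm5 at -0.70 without treated replicate 1. Mki67 and Top2a never exceeded the array median. Of 9 pancreas and gut markers 2 were tested. Cela1 was at -0.35 ± 0.15, and at -0.21 without treated replicate 1. Fabp2, which passed the filter only through the control arrays, read 31.2, 49.4 and 35.3 in the control rats and 15.9, 2.45 and 20.8 in the treated rats, where it was dim.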

How the data were processed

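Liver RNA of 6 rats, 3 per diet, was measured on 1-colour arrays. Per the submitters' processing notes the authors made the deposited intensities with MAS5, on a linear scale; the version is not given in the sources used here. Each array has a trimmed mean of 100 (2% left out at each end), so no further scaling was applied. The table holds no detection calls, so the array median served in their place. Precision is limited by the number of arrays.

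Of 31099 probe sets, 57 control probe sets were left out, and 15778 exceeded the array median on at least 3 arrays. GEO's platform annotation gave 1 symbol to 20826 probe sets, several to 436, from which no gene was named, and none to 9780. The GRCr8 gene table matched 20758 of the first.

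Log2 signals were fitted with limma 3.58.1 in R 4.3.3 (lmFit, eBayes with an intensity trend, no block), 2-sided, with Benjamini-Hochberg adjustment over all tested probe sets and a threshold of 0.05. The fit was tested on simulated data. Named genes were the 8 members; in each of 7 pathway lists up to 4 genes past the threshold, or else the 3 with the smallest p; in each marker list the 2 with the smallest p; and the 5 genes most correlated with Epcam. Exceptions are marked. The members and lists were chosen with earlier results of these data known. The 14 alternatives changed the filter, scaling, pseudocount (16), variance model, array weights and block, and left out each array.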

Additional observations from a re-analysis of the deposited data

How the results depend on the processing

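No member probe set passed an adjusted p of 0.05 in limma under any of the 14 alternatives run, and Epcam, both Onecut1 probe sets and the bright Cdh1 probe set kept their direction in all 14. Epcam ranged from 0.50 to 0.81 on the log2 scale. Median centring raised every log2 difference by 0.17. Krt18 reversed to 0.094 with median centring, and ranged from -0.15 to 0.0095 when single arrays were left out. Krt8 ranged from -0.085 to 0.27 and Krt23 from -0.29 to 0.32 in those fits. Ptprc reversed to 0.14 with median centring and to 0.035 with quantile normalization, and ranged from -0.094 to 0.047 without single arrays. With median centring the added 0.17 exceeds the size of the Krt18 and Ptprc differences, so their signs turn. The cause of the other reversals was not tested.

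The number of probe sets passing was 27, with 21 higher and 6 lower. It was 3 without a trend in eBayes (3 higher, 0 lower), 70 with median centring (65 higher, 5 lower) and 15 with a replicate block (10 higher, 5 lower), and 5 to 28 when single arrays were left out, lowest without treated replicate 2 and 8 without treated replicate 3. Genes passing in the 7 pathway lists, an alternative set added after seeing the data, numbered 1, with 0 without a trend, 2 with median centring and 0 to 1 without single arrays. Over all tested probe sets, the deviations of animals with equal replicate numbers had r = -0.10, 0.10 and -0.06 for numbers 1 to 3. Unequal numbers gave -0.07 to 0.15. With 3 animals a group such small values cannot decide whether the numbers pair the animals. The replicate block changed no member's call. It narrowed the SE of the Onecut1 probe sets from 0.38 to 0.22 and from 0.34 to 0.16, and that of Krt8 from 0.17 to 0.13. For Epcam, Krt18 and Cdh1 the SE with the block was 0.16, 0.10 and 0.17, as without it. Probe sets dim in both groups (Spp1 and 1 of Cdh1) or in control livers (Krt19) limit what can be said of duct cells.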

Other observations

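Control replicate 3, in which both Onecut1 probe sets were lowest among the control animals, also held the extreme control value of several hepatocyte genes, which were picked out after their values were seen. With 3 control animals some animal is always the extreme, so the picks do not set this animal apart. By the brightest probe set of each gene, it held the middle control value of Alb, Apoa1, Ttr, Cps1 and Serpina1. It was highest for Ass1 and Fgb and lowest for Ahsg. Foxa2, a pioneer factor of liver genes, had a signal of 568 there against 248 and 239 in control replicates 1 and 2, and 163 to 304 in treated livers. Tat, the tyrosine aminotransferase of amino acid breakdown, had 1014 there against 2187 and 2350 in the other control animals and 2245 to 2564 in treated livers. Cebpb had 495 there against 744 and 1110, and 1103 to 1671 in treated livers. The same animal had the highest Krt8 and Krt18 of all 6, at 1157 and 1019. Without it the log2 difference of Krt8 was 0.27 ± 0.10 (SE, adjusted p = 0.447 in limma).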
